A study of Homo sapiens with 6 samples.

Results

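ATP-binding cassette (ABC) proteins are ATPases, most of them membrane pumps that move drugs, lipids, peptides, metal complexes or metabolites across a membrane, and they are grouped by sequence into subfamilies named with the letters A to G. The members ABCB1 (P-glycoprotein), ABCC1 and ABCG2 (breast cancer resistance protein) are the best known drug efflux pumps of tumour cells and lower the cell content of taxanes, anthracyclines or camptothecins. Other members export conjugated metabolites, load sterols onto lipoproteins, serve mitochondria, lysosomes and peroxisomes, or, in subfamilies E and F, have no membrane part and act on ribosomes. The ABC genes were taken by symbol, as ABC followed by a letter from A to G and a number, which gave 46 of the 38637 genes in the table.

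RNA sequencing was performed on OVCAR8 cells, an established human ovarian cancer cell line labelled wild type, after 72 h in DMSO, the vehicle, or in 2 nM pladienolide B, with 3 samples per group. Pladienolide B binds SF3B1 in the SF3b complex of the spliceosome, and the comparison asks how the RNA levels of OVCAR8 cells differ when this splicing factor is inhibited. Poly(A) RNA was sequenced in every sample, and a single line stands for ovarian cancer here. OVCAR8 is also the parent of NCI/ADR-RES, a line selected in doxorubicin and known for abundant ABCB1. The labels do not say whether the samples came from separate cultures. The p-values set a difference against the spread among these samples, which may be technical, and may not carry over to new cultures.

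The samples held 22621338 to 26130882 reads on genes, of which the ABC genes took 0.155% to 0.157% with the vehicle and 0.163% to 0.167% after treatment. DMSO replicate 2 stood apart: its counts differed from those of the other DMSO samples with a chi-square per degree of freedom of 7.31 and 7.42, against 2.01 between DMSO replicates 1 and 3 and 3.17 to 4.84 among the pladienolide B samples. The line was checked against ovarian epithelial markers. PAX8 averaged 4108 adjusted reads in DMSO and 4341 in pladienolide B and the keratin gene KRT7 12530 and 8115 (log2 fold change -0.64, adjusted p = 7.7e-06), whereas WT1 and MUC16 averaged 18.0 to 22.9. Of 8 such markers, 2 were higher and 2 lower in pladienolide B. Of 7 markers of blood, vessel and liver cells, CD3E was at 0 in every sample and PTPRC, HBB and ALB averaged below 1 adjusted read in both groups, while CD68, which also encodes a lysosomal protein, averaged 1146 and 1526, VWF 25.5 and 39.7, and PECAM1 31.6 and 33.1.

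An adjusted read is a read on a gene after the authors' adjustment to a common library size. Of the 46 ABC genes, 32 were abundant enough to be tested and 14 were not. Of the 32, 18 (56.2%) had an adjusted p below 0.05, beside 47.6% of all 16178 genes tested. Among these, 8 were higher in pladienolide B, beside 22.4% of all genes in that direction, and 10 were lower, beside 25.2%. In 5 the log2 fold change was 0.58 or more in size, a class that held 11.7% of all genes. The samples of the 2 groups did not overlap in 17 of the 32, against 55.3% of all genes. The median log2 fold change of the 32 was -0.01, and that of all genes was 0. The share called in the family was thus near that of all genes.

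**Figure D1:**
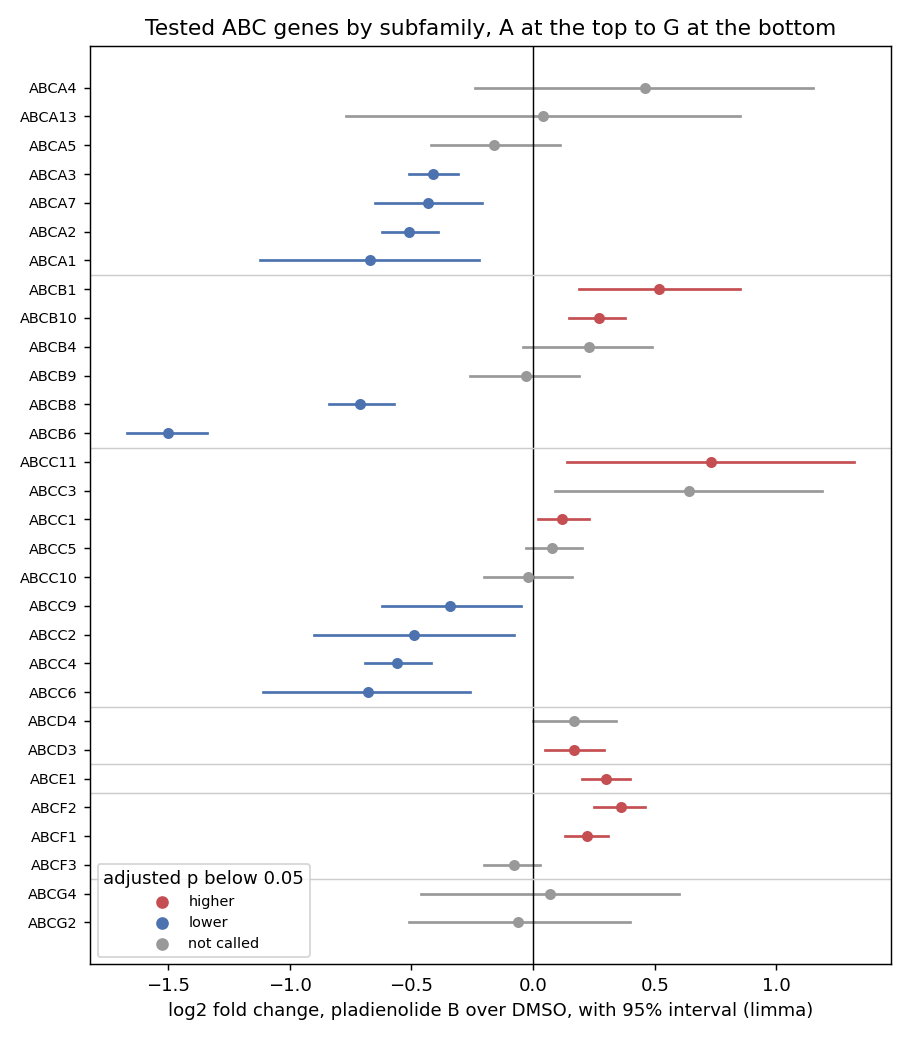
Log2 ratio of treated to vehicle samples (x axis) with its 95% interval for 30 tested ABC genes (y axis), grouped by subfamily from A at the top to G at the bottom, with genes higher in red, lower in blue and not past an adjusted p of 0.05 in grey. ABCB6 lies farthest from 0 at -1.50, the 4 coloured points of subfamily A are all below 0, and the 3 coloured points of subfamilies E and F are all above it.

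ABCB1, which pumps hydrophobic drugs out of the cell and is a standard marker of multidrug resistance, rose from a low level. It had 109, 85.7 and 101 adjusted reads in the DMSO samples and 133, 172 and 123 in the pladienolide B samples. Every pladienolide B sample was above every DMSO sample, with replicate 2 of each group lying farthest out. The treated mean was 144% of the DMSO mean (log2 fold change 0.52 ± 0.16 SE, 95% interval 0.19 to 0.85, adjusted p = 0.011). Without pladienolide B replicate 2 the log2 fold change was 0.38 (adjusted p = 0.081), and without DMSO replicate 2 it was 0.42 (adjusted p = 0.039). RUNDC3B lies on the opposite strand within the same region of chromosome 7 and averaged 86.5 adjusted reads in DMSO and 58.8 in pladienolide B. Whether the counting used strand is not given in the sources used here, so reads of these overlapping genes may not be fully separated.

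ABCC1, which exports glutathione and glucuronide conjugates and anthracyclines, was the most abundant of the 3 classical pumps and moved little. It had 4222, 3828 and 4355 adjusted reads in DMSO and 4418, 4688 and 4397 in pladienolide B. Here the ranges did not meet, but the lowest treated sample lay close to the highest DMSO sample. The log2 fold change was 0.12 ± 0.05 SE (95% interval 0.02 to 0.23, adjusted p = 0.0496), and it passed the threshold under 7 of 16 alternative settings and missed it under 9. Without DMSO replicate 2 it was 0.07 (adjusted p = 0.15), and without pladienolide B replicate 2 it was 0.09 (adjusted p = 0.20). Leaving out DMSO replicate 1 or pladienolide B replicate 1 or 3 gave 0.14 each time, with adjusted p of 0.061, 0.078 and 0.067.

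ABCG2, which pumps camptothecins, mitoxantrone and urate, was low in both groups and no change was detected. It had 37.5, 42.3 and 53.2 adjusted reads in DMSO and 43.7, 42.7 and 40.1 in pladienolide B. The treated samples lay within the range of the DMSO samples. The log2 fold change was -0.06 ± 0.22 SE (adjusted p = 0.86), and its 95% interval of -0.51 to 0.40 leaves room for changes of either sign as large as that estimated for several called members.

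**Figure D2:**
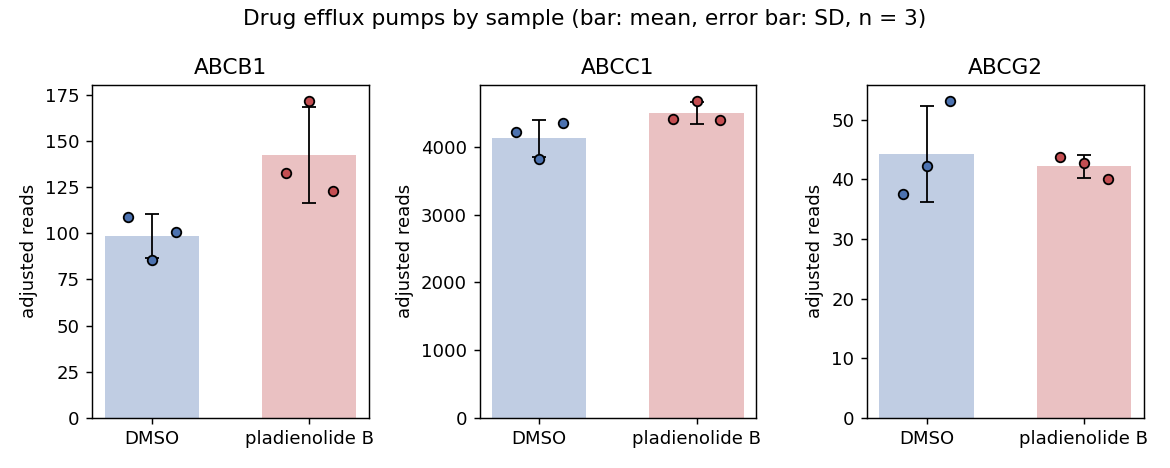
Adjusted reads (y axis, each panel on its own linear scale from 0) of ABCB1, ABCC1 and ABCG2 in the 3 DMSO and 3 pladienolide B samples, with each sample as a point, bars for the means and error bars for the SD. ABCB1 shows separate groups (85.7 to 109 against 123 to 172), ABCC1 shows groups that nearly touch, and the ABCG2 treated samples (40.1 to 43.7) sit within the DMSO range (37.5 to 53.2).

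Levels of different genes were compared as adjusted reads per kilobase of the canonical transcript. On this scale ABCC1 was 33.5 times ABCB1 in DMSO and 25.3 times in pladienolide B, and 60.6 and 69.2 times ABCG2. ABCB1 was 1.81 times ABCG2 in DMSO and 2.74 times in pladienolide B. Dividing instead by the length of all annotated exons gave 30.7 and 23.2, 59.8 and 68.4, and 1.95 and 2.95, in the same order. Among the 46 ABC genes in DMSO, ABCC1 ranked 6, ABCB1 ranked 23 and ABCG2 ranked 27 per kilobase. The highest levels per kilobase were those of ABCE1 (1700 per kilobase) and ABCF1 (1580) of subfamilies E and F, followed by ABCA3 (716), ABCF2 (677), ABCD3 (669) and ABCC1 (636). The ranges over samples of ABCF2 overlapped those of ABCA3, ABCD3 and ABCC1, and those of ABCE1 and ABCF1 overlapped each other, so that the order among these neighbours is not fixed by 3 samples. The level of ABCF2 also rests on how reads were divided with an overlapping read-through gene, which is not given. That gene averaged 2140 adjusted reads in DMSO, beside 3065 for ABCF2. Per kilobase of all annotated exons, ABCF1 (1200) stood above ABCE1 (1060), and ABCC1 (473) above ABCD3 (315). ABCE1, ABCF1, ABCA3 and ABCC1 together carried 53.9% of all adjusted reads on ABC genes in DMSO and 56.3% in pladienolide B.

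**Figure D3:**
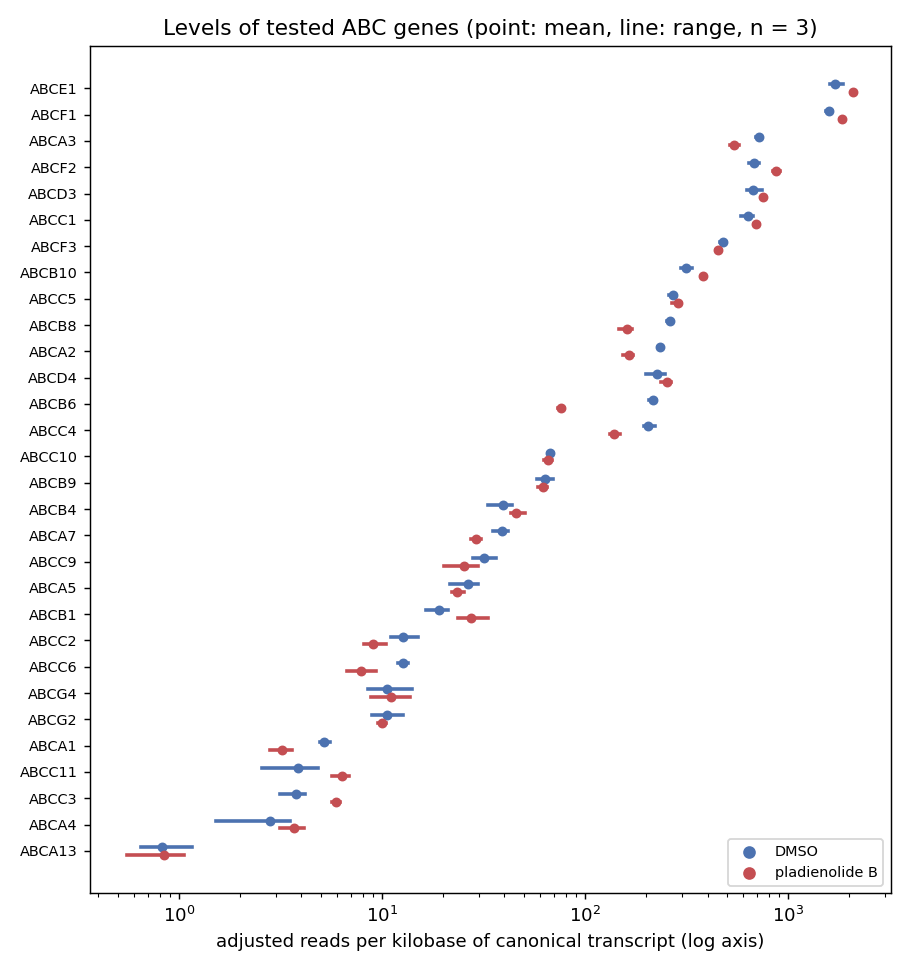
Adjusted reads per kilobase of canonical transcript (log x axis) for 30 tested ABC genes, ordered by their DMSO mean, with the mean as a point and the range of 3 samples as a line for DMSO (blue) and pladienolide B (red). The genes span from ABCE1 at 1700 to ABCA13 at 0.821 in DMSO, with ABCC1 near the top and ABCB1 and ABCG2 in the lower part, and ABCB6 shows the widest gap between the groups.

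Promoter sequences, the 250 bases before a transcription start in RefSeq on GRCh38.p14, were found for 35 of the 46 genes. Shown are a lipid transporter and a mitochondrial transporter that fell and a subfamily F member that rose. They were taken from members with at least 200 bases of the window outside annotated exons. Capitals mark matches on either strand, which may overlap each other. The GC box was searched as GGGCGG. The CCAAT box was searched by the letters of its name. The TATA box was searched as TATAAA. For the E-box the letters were CACGTG. ABCA1, which fell, is read from chr9:104928156-104928405 on the minus strand. ABCB8, which fell, is read from chr7:151028200-151028421 on the plus strand, leaving out 28 bases that lie in an exon. ABCF2, which rose, is read from chr7:151227206-151227455 on the minus strand, on the same chromosome arm as ABCB8.
ABCA1: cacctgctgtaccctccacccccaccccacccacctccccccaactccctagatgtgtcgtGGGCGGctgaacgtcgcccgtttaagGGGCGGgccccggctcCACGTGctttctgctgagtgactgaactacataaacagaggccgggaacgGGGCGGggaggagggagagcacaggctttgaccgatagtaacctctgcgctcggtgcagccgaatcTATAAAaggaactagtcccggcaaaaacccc
ABCB8: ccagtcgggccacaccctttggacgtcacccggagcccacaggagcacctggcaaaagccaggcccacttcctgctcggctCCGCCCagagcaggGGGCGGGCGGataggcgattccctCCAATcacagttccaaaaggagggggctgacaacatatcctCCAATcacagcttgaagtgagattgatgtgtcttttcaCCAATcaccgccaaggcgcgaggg
ABCF2: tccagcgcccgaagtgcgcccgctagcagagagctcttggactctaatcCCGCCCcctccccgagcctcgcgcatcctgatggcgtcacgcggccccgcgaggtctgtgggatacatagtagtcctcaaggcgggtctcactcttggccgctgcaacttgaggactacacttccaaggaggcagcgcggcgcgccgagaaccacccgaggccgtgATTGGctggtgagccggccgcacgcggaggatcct

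A GC box was present in 18 of the 35 ABC promoters and in 42.6% of the 35116 promoters of that length. Among the 26 tested ABC genes with a promoter, 17 held it. Among the ABC genes that changed, it was present in 7 of 10 that fell and 4 of 7 that rose. ABCC1, which was also called higher, had no promoter in the set. A CCAAT box was present in 8 of 35 against 32.0% of all promoters, in 3 of the 10 and 2 of the 7. TATA boxes and E-boxes were present in 5 ABC promoters each, against 10.7% and 6.34% of all promoters. ABCA1 held 3 of the 4 motifs within its window, and ABCB8, which fell, and ABCF2, which rose, held the GC and CCAAT boxes. Among changed members not shown, ABCC4 and ABCC6, which fell, and ABCC11, which rose, held none of the 4. A link between motifs and changes was not tested.

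The other tested members of subfamily C moved in both directions. ABCC4, which exports cyclic nucleotides, prostaglandins and nucleotide analogues, was the abundant one that fell: it had 1160, 1291 and 1140 adjusted reads in DMSO and 794, 868 and 776 in pladienolide B. The groups were well apart, with the treated mean at 67.9% of the DMSO mean (log2 fold change -0.56 ± 0.06 SE, adjusted p = 2.3e-06). ABCC6, which releases ATP from hepatocytes and is mutated in pseudoxanthoma elasticum, fell from 64.0, 61.5 and 69.1 to 47.8, 34.3 and 39.1 adjusted reads with no overlap (log2 fold change -0.68 ± 0.20 SE, adjusted p = 0.010). Part of ABCC6 has near-identical copies, ABCC6P1 and ABCC6P2, and how reads were shared among them is not given in the sources used here. ABCC6P2 averaged 9.93 adjusted reads in DMSO and 14.1 in pladienolide B.

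ABCC11, an exporter of cyclic nucleotides and steroid sulfates that sets earwax type, had the largest rise of subfamily C from a low level. It had 24.5, 15.1 and 28.5 adjusted reads in DMSO and 40.6, 33.2 and 38.1 in pladienolide B. No treated sample was as low as any vehicle sample, and DMSO replicate 2 was the lowest sample. The log2 fold change was 0.73 ± 0.28 SE (adjusted p = 0.040), but it was 0.48 (adjusted p = 0.16) without DMSO replicate 2, and leaving out pladienolide B replicate 1, 2 or 3 gave adjusted p of 0.12, 0.058 and 0.095. LONP2, on the opposite strand of the same region, averaged 1890 and 1960 adjusted reads, and its part in the ABCC11 reads was not tested.

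ABCC2 and ABCC3 are exporters of conjugated bile pigments and drugs at opposite faces of the hepatocyte, and both were low. ABCC2 was called lower with a log2 fold change of -0.49 (adjusted p = 0.0447), and 8 of 16 alternatives lost that call: without DMSO replicate 3 it was -0.36 (adjusted p = 0.19), without DMSO replicate 2 -0.52 (adjusted p = 0.060), and without pladienolide B replicate 2 or 3 it was -0.42 and -0.45 (adjusted p = 0.13 and 0.11). ABCC3 had a log2 fold change of 0.64 and just missed the threshold (adjusted p = 0.052), although its groups did not overlap (17.8 to 23.7 against 32.3 to 35.1 adjusted reads), and it passed under 4 of 16 alternatives: a minimum of 10 adjusted reads in every sample (adjusted p = 0.037), median-of-ratios rescaling (0.048), upper-quartile rescaling (0.045) and limma without the variance trend (0.010). ABCC5, an exporter of cyclic nucleotides, and ABCC10, linked to taxane efflux, gave 0.08 (adjusted p = 0.22) and -0.02 (adjusted p = 0.85), with 95% intervals of -0.03 to 0.20 and -0.20 to 0.16. ABCC9, a sulfonylurea receptor that regulates potassium channels instead of pumping, was called lower at -0.34 (adjusted p = 0.0474) with overlapping groups, and 10 of 16 alternatives lost the call. Without pladienolide B replicate 3 its value was -0.18 (adjusted p = 0.27), without DMSO replicate 1 -0.23 (adjusted p = 0.21), and without pladienolide B replicate 1 -0.37 (adjusted p = 0.069). In all, 6 of 9 tested members of subfamily C were called, 2 higher and 4 lower, beside 47.6% of all tested genes called. Without DMSO replicate 2 the number in subfamily C was 3, beside 48.4% of all tested genes.

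Subfamily B held the largest change of the family. ABCB6, a porphyrin and heavy metal transporter of mitochondrial and other membranes, had 668, 617 and 645 adjusted reads in DMSO and 224, 220 and 234 in pladienolide B. All treated samples lay close together and far below the DMSO samples. The treated mean was 35.2% of the DMSO mean (log2 fold change -1.50 ± 0.08 SE, adjusted p = 2.5e-10), and over the 16 alternatives the log2 fold change was between -1.53 and -1.48. Among the 32 tested members it was the 1 that changed by more than 1 on the log2 scale. ABCB8, a transporter of the mitochondrial inner membrane linked to iron export and to a potassium channel, fell from 1243, 1171 and 1224 to 682, 788 and 761 adjusted reads with no overlap, to 61.3% of the DMSO mean (log2 fold change -0.71 ± 0.06 SE, adjusted p = 1.3e-07).

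The other named members of subfamily B gave smaller values. ABCB10, an inner membrane transporter needed for heme synthesis in erythroid cells, rose slightly, with a log2 fold change of 0.27 (adjusted p = 8.8e-04). ABCB9, a lysosomal peptide transporter, gave -0.03 (adjusted p = 0.83). ABCB4, which moves phosphatidylcholine into bile and lies next to ABCB1, gave 0.23 (95% interval -0.04 to 0.49, adjusted p = 0.15) and overlapping groups. The 4 called members of subfamily B, of 7 tested, thus comprised ABCB1 and ABCB10 on the higher side and ABCB6 and ABCB8 on the lower side. Their share of 57.1% stands beside 47.6% of all tested genes called.

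**Figure D4:**
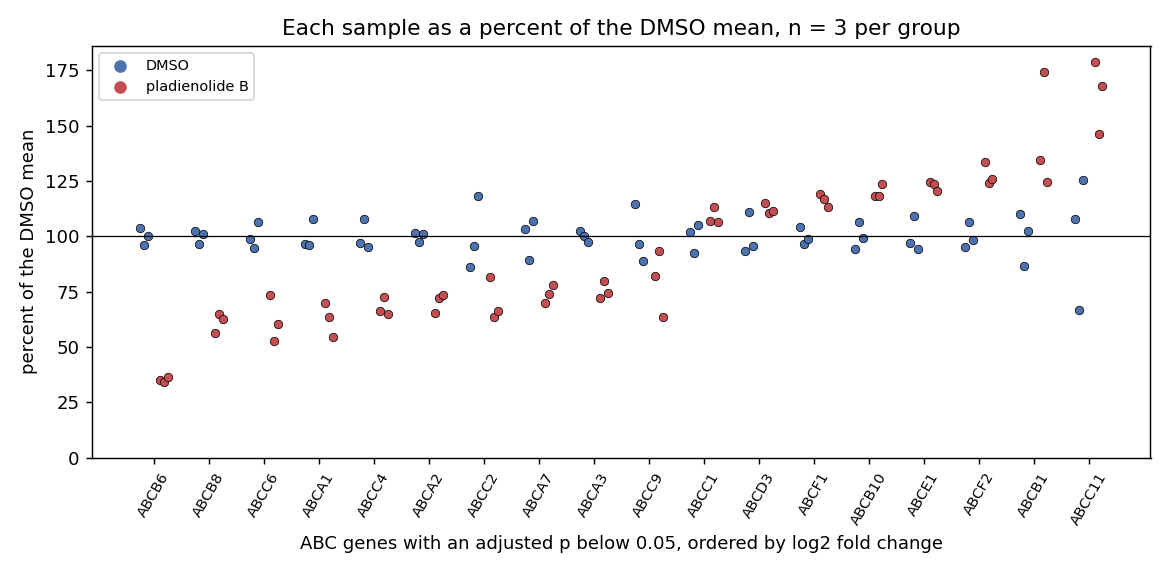
Each sample as a percent of the gene's DMSO mean (y axis, from 0) for the 18 ABC genes with an adjusted p below 0.05, ordered from the largest fall to the largest rise, with 3 DMSO samples in blue and 3 pladienolide B samples in red. ABCB6 lies near 35.2% in every treated sample, the groups of ABCC9 and ABCD3 overlap, and ABCB1 and ABCC11 spread most among the genes that rose.

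Subfamily A is a group of large lipid transporters, and all of its called members fell. They were 4 of 7 tested, or 57.1%, beside 47.6% of all tested genes called and 25.2% called lower. ABCA1, which hands cholesterol and phospholipid to apolipoprotein A-I and is mutated in Tangier disease, fell most, from 51.7, 51.4 and 57.8 to 37.4, 34.1 and 29.1 adjusted reads. Its groups did not overlap (log2 fold change -0.67 ± 0.21 SE, adjusted p = 0.016). The call was lost without DMSO replicate 3 (-0.61, adjusted p = 0.061) or pladienolide B replicate 3 (-0.57, adjusted p = 0.058). ABCA2, a lysosomal transporter linked to sterol handling, ABCA3, which loads phospholipid into the lamellar bodies of surfactant cells, and ABCA7, a phospholipid transporter associated with Alzheimer disease risk, had log2 fold changes of -0.51 (adjusted p = 9.4e-07), -0.41 (adjusted p = 1.5e-06) and -0.43 (adjusted p = 0.0030). ABCA3 was the most abundant, averaging 4726 ± 124 adjusted reads (SD, n = 3) in DMSO and 3563 ± 184 in pladienolide B. The retinal transporter ABCA4, ABCA5 of lysosomes and the very large ABCA13 gave 0.46 ± 0.33, -0.16 ± 0.12 and 0.04 ± 0.38 (log2 fold change ± SE), with adjusted p of 0.27, 0.32 and 0.94. ABCA5 passed the threshold without DMSO replicate 2 (-0.29, adjusted p = 0.049).

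Subfamily G holds smaller sterol transporters beside ABCG2. ABCG4, a sterol transporter of brain, averaged 40.4 adjusted reads in DMSO and 42.1 in pladienolide B, with a log2 fold change of 0.07 (95% interval -0.46 to 0.60, adjusted p = 0.85). ABCG1, which loads cholesterol onto high-density lipoprotein, was too low to test. Over the 16 alternatives the lowest adjusted p was 0.62 for ABCG2 and 0.43 for ABCG4.

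Subfamily D brings long-chain fatty acids into peroxisomes, apart from the lysosomal ABCD4. ABCD3, the abundant peroxisomal membrane transporter of branched-chain and bile acid precursors, had 2253, 2672 and 2308 adjusted reads in DMSO and 2772, 2661 and 2685 in pladienolide B. DMSO replicate 2 was within the treated range, so the groups overlapped. The log2 fold change was 0.17 ± 0.06 SE (adjusted p = 0.021), with adjusted p of 0.12 and 0.090 without DMSO replicate 1 or 3 and of 0.082 and 0.051 without pladienolide B replicate 1 or 3. ABCD4, which carries cobalamin out of lysosomes, gave 0.17 (95% interval 0.00 to 0.34, adjusted p = 0.089), and 0.23 (adjusted p = 0.039) without DMSO replicate 3.

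The members without a membrane part rose, with the exception of ABCF3. Called higher were 1 of 1 in subfamily E and 2 of 3 in subfamily F, beside 22.4% of all tested genes. ABCE1, which splits ribosomes after termination, had 6391, 7198 and 6217 adjusted reads in DMSO and 8212, 8177 and 7958 in pladienolide B. Its treated samples lay close together above all DMSO samples, at 123% of the DMSO mean (log2 fold change 0.30 ± 0.05 SE, adjusted p = 9.1e-05). ABCF2, a member of the translation-associated subfamily F, rose from 2916, 3260 and 3020 to 4100, 3806 and 3862 adjusted reads with no overlap (log2 fold change 0.36 ± 0.05 SE, adjusted p = 1.5e-05). A read-through gene that joins ABCF2 to H2BE1 lies on the same strand and averaged 2140 and 2700 adjusted reads, and how reads were divided between the pair is not given. ABCF1, which binds the initiation factor eIF2 and promotes translation initiation, had a log2 fold change of 0.22 (adjusted p = 4.0e-04). ABCF3 gave -0.08 (95% interval -0.20 to 0.03, adjusted p = 0.23).

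The other 14 ABC genes were too low to test and are described by reads before adjustment. ABCD2, a peroxisomal fatty acid transporter, had 4, 3 and 4 reads in DMSO and 12, 11 and 7 in pladienolide B. ABCG1 had 1, 3 and 5 against 11, 4 and 8, and the sulfonylurea receptor ABCC8 of pancreatic beta cells had 1, 2 and 0 against 5, 3 and 5. ABCA12, a lipid transporter of the epidermis, had 2, 3 and 1 against 4, 4 and 7. ABCD2, ABCC8 and ABCA12 had the higher values in pladienolide B, with no overlap, at counts where a single read changes a sample visibly. The share without overlap among all genes too low to test was not taken, so no result is read from these members. ABCA10 had 1 to 8 reads over the 6 samples. In ABCA6, ABCA8, ABCA9, ABCB5, ABCB11, ABCC12, ABCC13, ABCG5 and ABCG8 no sample held more than 3 reads. Among these, ABCB11 pumps bile salts, ABCG5 and ABCG8 form the sterol pump of gut and liver, and ABCC13 is annotated as a transcribed pseudogene. When all of the 14 were fitted without a filter on low values, 1 passed the threshold, beside 26.7% of all 27679 genes in that fit. That member was ABCC8 (log2 fold change 1.59, adjusted p = 0.044), and ABCD2 had a log2 fold change of 1.30 (adjusted p = 0.063). The 26.7% includes the abundant genes, and the share among low genes alone was not taken.

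ABC transporters known by other symbols were counted apart from the 46. TAP1 and TAP2, which carry peptides into the endoplasmic reticulum for antigen presentation, had log2 fold changes of -0.04 (adjusted p = 0.61) and -0.08 (adjusted p = 0.19). The chloride channel CFTR averaged 4.16 adjusted reads in DMSO and 5.53 in pladienolide B and was not tested. Of 4 ABC pseudogenes, 3 were tested, and ABCA17P, ABCC6P2 and ABCA11P had log2 fold changes of -0.23, 0.51 and 0.08 (adjusted p = 0.075, 0.33 and 0.62).

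Genes that work beside the ABC members also moved in both directions, and their counts stand beside 47.6% of all tested genes called, 22.4% higher and 25.2% lower. Of 17 tested carriers of drugs and metals outside the family, 4 were higher and 4 lower, among them the organic anion carrier SLCO1B3, which fell from 97.4, 144 and 121 to 40.8, 64.6 and 37.1 adjusted reads (log2 fold change -1.35, adjusted p = 6.0e-05), the carnitine and ergothioneine carrier SLC22A4 (-0.71, adjusted p = 0.011) and the cation exporter SLC47A1, which rose (0.90, adjusted p = 0.026). Beside the glutathione-dependent pumps, 2 of 12 tested genes of glutathione conjugation were higher and 4 lower. Beside ABCA1, 4 of 13 nuclear receptor and liver X receptor target genes were higher and 5 lower, with APOE up (0.58, adjusted p = 1.5e-05) and the phospholipid remodelling enzyme LPCAT3 (-0.88, adjusted p = 1.0e-07) and the transfer protein PLTP (-0.76, adjusted p = 9.2e-08) down. Beside ABCB6 and ABCB8, 3 of 11 genes of mitochondrial heme and iron-sulfur synthesis were higher and 3 lower, and UROD, an enzyme of heme synthesis, fell (-0.58, adjusted p = 1.7e-06). Beside ABCE1 and ABCF1, 11 of 12 genes of ribosome recycling and eIF2 function were called, 6 higher and 5 lower, and NEMF, which marks stalled ribosome products, fell most (-0.96, adjusted p = 7.3e-10). All 12 averaged 1048 or more adjusted reads in both groups, a level at which smaller changes can be called than among low genes. Among peroxisome partners 4 of 9 were higher and 1 lower, among cobalamin partners 1 of 5 higher and 2 lower, and among potassium channel partners 1 of 2 was lower.

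In bulk RNA, fewer cells of a kind and less RNA per cell cannot be told apart, and every value is relative to the other RNA of its library. Another gene of the table overlaps 24 of the 46 ABC genes, and in 10 of them the overlapping gene averaged 10 or more adjusted reads in a group. Of the 18 called members, 11 kept their call under all 16 alternatives, namely ABCA2, ABCA3, ABCA7, ABCB6, ABCB8, ABCB10, ABCC4, ABCC6, ABCE1, ABCF1 and ABCF2. Without DMSO replicate 2, 15 of the 18 kept it, and ABCC1, ABCC2 and ABCC11 lost it.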

How the data were processed

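RNA of OVCAR8 cells in DMSO (n = 3) or pladienolide B (n = 3) was sequenced. By the study's methods, the authors trimmed reads and aligned them to hg38 with hisat2, with DESeq2 for differential expression. The submitters' processing notes name HISAT2, HTSeq 0.12.4, DESeq2 and hg19, but 99.974% of the 26990 table genes found in GENCODE v44 overlap their GRCh38 position, so GRCh38 was used. Counting of multi-mapping reads is not given in the sources used here. The deposited values are a signal per gene and sample, found here to be edgeR's quantile-adjusted counts at a common library size (dispersion 0.0027). Whole reads were recovered from them, and readjusting these returned 100% of the values within 0.001. The authors' log2 fold changes, p-values and q-values were not used.

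Genes were kept by filterByExpr of edgeR 4.0.16 (minimum 10 reads in 3 samples, 15 in total) on the deposited signal. Groups were compared with limma 3.58.1 on log2(value + 1) with a variance trend, two-sided, with Benjamini-Hochberg adjustment over all 16178 genes and a threshold of 0.05. The pseudocount of 1 understates fold changes of low genes. Alternatives were 2 other filters, a pseudocount of 0.1, 2 rescalings, no trend, edgeR's quasi-likelihood test and DESeq2 1.42.0 on recovered reads, a replicate block and each sample left out. Some tested members are not reported here by name. The fit was tested on simulated data whose changed genes all held more reads than the lowest tested members. That run says nothing on calls among members with few reads or near the threshold. The members and gene lists were chosen with earlier results of these data known. Per-sample values are given for ABCB1, ABCC1, ABCG2, the largest called rise and fall of each subfamily and called members of 0.58 or more in size. From the lists, called genes of that size and TAP1, TAP2 and CFTR are named. Motifs were read in RefSeq promoters, using for each gene the start nearest that of its canonical transcript.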

Additional observations from a re-analysis of the deposited data

How the results depend on the processing

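Over the 16 alternatives, the number of genes called was 6381 to 7836 (7695 in the reported fit) and that of ABC genes 12 to 19 (18), lowest without pladienolide B replicate 3. Of the 288 values of called members, 246 stayed past the threshold and 42 lost it, and none of the 288 changed direction. The ABC genes called higher were 5 to 8 (reported: 8) when a sample was left out. Subfamily C had 2 to 5 called (reported: 6) when a sample was left out, 3 without a filter on low values and 3 by DESeq2. Subfamily D had 0 to 1 called (reported: 1) when a sample was left out and 0 by limma without the variance trend. Of all tested genes, 40.6% to 48.4% were called when a sample was left out, against 47.6% in the reported fit. Of those calls, 45.8% to 48.4% were higher, against 47%. The share called was 26.7% without a filter, 43.2% by DESeq2 and 39.4% by limma without the variance trend.

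Values near 0 of members that were not called changed sign. When each sample was left out in turn, ABCA13 ranged from -0.13 to 0.31, ABCB9 from -0.09 to 0.04, ABCC10 from -0.05 to 0.01, ABCG2 from -0.17 to 0.08 and ABCG4 from -0.09 to 0.28. The causes were not tested. Rescaling moved the median of all genes by at most 0.022 on the log2 scale. The replicate numbers did not pair the samples (correlations of same-numbered deviations -0.018, -0.017 and 0.0026), and with the number as a replicate block 16 ABC genes and 7349 genes were called. A member with few reads, such as ABCC11 with 15 to 39 reads a sample, is limited by counting error as well as by n = 3.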
